A study of Mus musculus with 8 samples.

Results

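Oxidative phosphorylation is carried out by 5 protein complexes of the mitochondrial inner membrane, and the genes described here are those whose symbols name their subunits. Of the 47729 genes in the deposited tables, 98 matched, 85 in nuclear chromosomes and 13 in mitochondrial DNA. They were chosen by symbol alone. The nuclear genes comprised 35 of complex I, 4 of complex II, 9 of complex III, 20 of complex IV and 15 of complex V. The remaining 2, Atp5s and Atp5sl, carry the symbol of complex V but are not subunits of it. Ndufa4 and Ndufa4l2 were counted with complex IV, where the Ndufa4 protein is now placed. The mitochondrial genes comprised 7 of complex I, 1 of complex III, 3 of complex IV and 2 of complex V. A further 6 matching symbols were pseudogenes and were dropped, and none of these had more than 8 counts in any library.

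RNA-seq libraries were made from total RNA of whole mouse kidneys at postnatal day 8. In the knockout group a Six2-driven Cre recombinase acted on a floxed Kctd1 gene (Six2Cre+KCTD1fl/fl), and the wildtype group came from control littermates whose own Cre and floxed alleles are not given in the labels. Six2-Cre acts in nephron progenitors, so it reaches the nephron epithelium but not collecting duct, stroma, vessels or blood cells. Each group had 4 libraries, and the labels do not say whether each came from a different animal, so every p-value measures the spread between these libraries. Kctd1 itself measured 24.3 ± 1.57 CPM (counts scaled to a common library size) in knockout kidneys and 31.6 ± 1.77 CPM in wildtype kidneys (SD, n = 4 each), with no overlap between the groups. Its log2 fold change was -0.38 ± 0.09 (SE), with an adjusted p of 0.279 in edgeR's quasi-likelihood test and 0.0158 in DESeq2.

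In oxidative phosphorylation, electrons from NADH enter complex I and electrons from succinate enter complex II. They pass through ubiquinone to complex III and through cytochrome c to complex IV, which hands them to oxygen. Complexes I, III and IV pump protons out of the matrix, and complex V, the ATP synthase, uses their return to make ATP. Tubule cells of the kidney, above all in the proximal tubule, the thick ascending limb and the distal convoluted tubule, are rich in mitochondria because reabsorption of salt is paid for with ATP. The mitochondrial genome encodes core subunits of every complex except complex II, and all other subunits are imported from the cytosol.

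The libraries differed in ways that touch these genes. Total counts ranged from 14457760 to 20741076. The 18S ribosomal row Rn18s-rs5 took 1.141%, 5.39%, 0.464% and 0.469% of the counts in knockout 1 to 4, and 0.462%, 0.743%, 0.595% and 0.361% in wildtype 1 to 4. Knockout 2 therefore stood apart, and its results are given with and without it. Xist, the RNA of the inactive X chromosome of females, reached 4559 CPM in knockout 2, against 4976 CPM in wildtype 3, with at most 7.26 CPM in any other library.

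Sequences are shown first where they set the limits or the identity of the genes. Parts of mitochondrial DNA have copies in the nuclear genome, and reads of a near-identical copy cannot be told from reads of the mitochondrial gene. The first 60 bases of mt-Nd3, a complex I subunit (chrM:9459-9518, GRCm38, plus strand), and of its copy Gm28438 (chr1:24613060-24613119, GRCm38, minus strand) read, with their single difference in capitals:
mt-Nd3: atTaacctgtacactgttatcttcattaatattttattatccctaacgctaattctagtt
Gm28438: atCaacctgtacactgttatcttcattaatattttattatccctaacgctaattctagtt
Counted from 1 at the first base of mt-Nd3, the difference is T3C, and it was the only difference over 345 aligned bases. Genes of mitochondrial DNA also overlap each other. The whole of mt-Atp8, a small subunit of the ATP synthase (chrM:7766-7969, GRCm38, plus strand), is printed below with the 43 bases that it shares with mt-Atp6 in capitals:
mt-Atp8: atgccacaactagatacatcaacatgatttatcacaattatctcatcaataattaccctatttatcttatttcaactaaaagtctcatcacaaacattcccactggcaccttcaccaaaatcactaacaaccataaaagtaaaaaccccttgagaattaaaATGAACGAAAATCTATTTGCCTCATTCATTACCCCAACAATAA

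Nuclear genes of the complexes are known to be driven by a small set of transcription factors, among them NRF1, the Ets factor GABP, YY1 and the estrogen-related receptors (ERR). RefSeq promoters (GRCm38.p6, 250 bases before to 50 after the start) were found for 69 nuclear genes, 3 of them through an older symbol, in 75 promoter windows. The palindromic word of NRF1, shown in capitals in Cox6a1 below, stood in 5 of these 75 windows (6.67%, both strands searched for every word), against 0.971% of all 32851 windows and 1.75% of 15497 windows of tested genes. The 5 genes were Atp5g2, Atp5k, Cox6a1, Ndufa11 and Uqcrc1. The Ets word CCGGAAG stood in 21.3% of the member windows, against 8.86% of all windows and 14.9% of those of tested genes. The YY1 word AAGATGGC stood in 16% of the member windows, against 2.75% and 3.88% in the same order of comparison sets. The ERR word TCAAGGTCA was present in 2.67% of member windows (Atp5g3 and Sdhd), against 0.423% and 0.290%. A TATAAA word stood in 10.7% of member windows, against 13.6% of all windows and 7.76% of those of tested genes. None of these words overlapped another in the windows printed here. A match is a string of letters and not a shown binding site.

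The promoters of 4 genes, picked for their matches, are printed to show these words, with every match in capitals. Cox6a1, the general form of a small complex IV subunit (chr5:115348909-115349208, minus strand), holds the NRF1 word at bases 89 to 98 of the window and the Ets word, on the opposite strand, at bases 235 to 241. Atp5j, coupling factor 6 of the ATP synthase (chr16:84834927-84835226, minus strand), holds the YY1 word at bases 163 to 170 and the Ets word at bases 190 to 196, in 1 of its 2 listed promoters. Atp5g3, which encodes the c subunit of the ATP synthase ring (chr2:73911277-73911576, minus strand), holds the ERR word on the opposite strand at bases 199 to 207. Cox8b, the heart, muscle and brown fat form of a complex IV subunit (chr7:140900397-140900696, minus strand), holds only a TATAAA word, at bases 255 to 260.
Cox6a1: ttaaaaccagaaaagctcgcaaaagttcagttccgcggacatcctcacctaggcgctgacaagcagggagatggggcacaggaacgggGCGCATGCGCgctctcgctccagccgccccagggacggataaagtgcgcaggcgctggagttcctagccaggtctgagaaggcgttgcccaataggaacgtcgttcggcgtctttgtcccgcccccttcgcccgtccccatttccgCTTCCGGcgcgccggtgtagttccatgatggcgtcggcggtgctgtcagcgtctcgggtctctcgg
Atp5j: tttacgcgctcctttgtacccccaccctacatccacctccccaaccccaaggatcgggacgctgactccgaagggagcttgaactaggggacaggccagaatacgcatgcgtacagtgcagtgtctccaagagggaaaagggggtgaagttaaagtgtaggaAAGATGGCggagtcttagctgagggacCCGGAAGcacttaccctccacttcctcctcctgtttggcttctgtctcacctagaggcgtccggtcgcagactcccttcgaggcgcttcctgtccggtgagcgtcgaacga
Atp5g3: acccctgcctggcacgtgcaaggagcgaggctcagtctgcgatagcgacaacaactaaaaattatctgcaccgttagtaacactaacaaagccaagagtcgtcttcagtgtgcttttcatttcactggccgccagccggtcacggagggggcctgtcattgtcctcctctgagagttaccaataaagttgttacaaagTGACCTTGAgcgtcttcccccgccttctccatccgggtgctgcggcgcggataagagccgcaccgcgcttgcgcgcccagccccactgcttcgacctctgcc
Cox8b: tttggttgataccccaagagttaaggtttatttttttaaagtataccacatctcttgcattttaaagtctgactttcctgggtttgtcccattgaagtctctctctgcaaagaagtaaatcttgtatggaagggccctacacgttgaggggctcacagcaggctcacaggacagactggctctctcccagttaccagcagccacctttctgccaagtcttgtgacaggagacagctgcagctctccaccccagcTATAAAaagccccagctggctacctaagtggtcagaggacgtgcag

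No gene of oxidative phosphorylation passed the test between knockout and wildtype kidneys. Among 95 genes tested (82 nuclear and 13 mitochondrial), 0 had an adjusted p below 0.05 in edgeR's quasi-likelihood test, where the smallest adjusted p was 0.666, and 0 in DESeq2, where it was 0.276. Across all 18548 genes tested the test called 15 (0.0809%), of which 9 were lower (0.0485%) and 6 higher (0.0323%). DESeq2 called 143 genes, 0.773% of those it tested (0.465% lower and 0.308% higher). Without knockout 2, edgeR called 0 members and 0.0800% of all genes (0.0480% lower and 0.0320% higher), and DESeq2 called 0 members and 0.817% of all genes (0.513% lower and 0.305% higher). At an unadjusted p below 0.05, 3 of the 82 nuclear genes were lower and 0 higher, against 3.08% of all genes lower and 3.11% higher, and 0 of the 13 mitochondrial genes were below it. Without knockout 2 the nuclear count was 2 lower, against 3.06% of all genes lower and 2.89% higher. Without knockout 3 it was 27, against 4.16% of all genes lower, and without wildtype 2 it was 1, against 2.56%. Cox6a2, Cox7b2 and Cox8c were too low to test. The 82 nuclear genes tested all had at least 54 counts in every library, so none passed the filter on low counts through 1 group alone.

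The members nevertheless leaned one way by genome of origin. Of the 82 nuclear genes 75 had a negative log2 fold change, with a median of -0.12, against 49.7% negative and a median of 0.00 over all genes tested. Of the 13 mitochondrial genes 12 had a positive one, with a median of 0.06. On the log2(TPM + 1) scale only 2 of 13 were positive, but there the median of all genes was -0.106. Relative to all genes the mitochondrial median was 0.020 on that scale. It was 0.055 for log2(TPM + 0.1) and -0.045 for log2(TPM + 1) without a filter. Without knockout 2 the nuclear median came to -0.02, and 55 of 82 genes were negative, against 49.3% of all genes. Without knockout 1 and 2, the libraries with most ribosomal RNA in their group, the nuclear median relative to all genes was 0.03 and 26 were negative. Without knockout 3 it moved the other way, to -0.22 relative to all genes with 81 of 82 negative. These directions thus depended on which libraries were kept, and members are not independent replicates of a condition.

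Summed over the 85 nuclear genes, the level was 17655, 14744, 21198 and 18353 CPM in knockout 1 to 4, against 19266, 20207, 20354 and 18350 CPM in wildtype 1 to 4. The groups overlapped, and both the lowest and the highest of the 8 sums were knockout libraries. The means were 17987 ± 2651 CPM in knockout and 19544 ± 931 CPM in wildtype kidneys (SD, n = 4 each), and without knockout 2 the knockout mean was 19069 ± 1877 CPM (n = 3). Summed over the 13 mitochondrial genes, the level was 48699, 53350, 55834 and 57284 CPM in knockout 1 to 4, against 53728, 53792, 44841 and 55469 CPM in wildtype 1 to 4. Here the single low library was wildtype 3, and the means of 53792 ± 3764 and 51957 ± 4813 CPM differed by less than either SD. In whole kidneys, fewer cells of a type and less RNA per cell cannot be told apart.

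**Figure D1:**
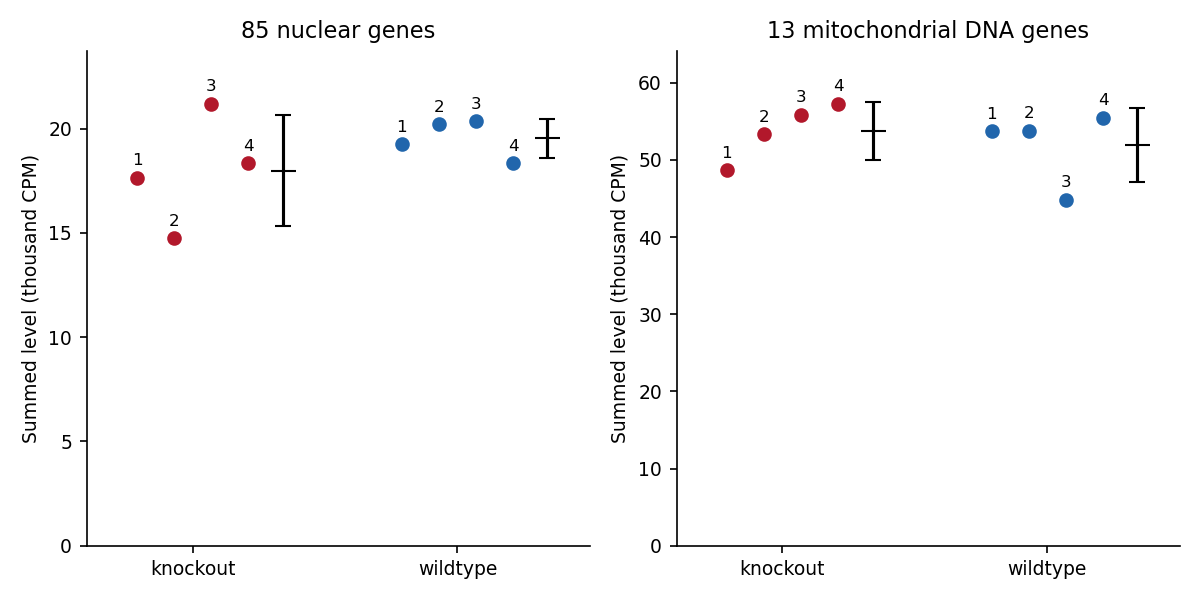
Summed level of the 85 nuclear genes (left) and the 13 mitochondrial DNA genes (right) in CPM, in units of 1000 on the y axis, 1 point per library with its replicate number, knockout left of wildtype, with the mean ± SD (n = 4 each) beside each group. Knockout 2 is the lowest point at left (14744 CPM) and wildtype 3 the lowest at right (44841 CPM).

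The ratio of mitochondrial to nuclear message was 2.76, 3.62, 2.63 and 3.12 in knockout 1 to 4, against 2.79, 2.66, 2.20 and 3.02 in wildtype 1 to 4, both terms in summed CPM. Knockout 2 had the highest ratio of the 8 and wildtype 3 the lowest, and these are the 2 libraries with a high Xist level. The means of 3.03 ± 0.442 and 2.67 ± 0.345 (SD, n = 4 each) overlapped within their SDs, and without knockout 2 the knockout mean was 2.84 ± 0.253 (n = 3).

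Knockout 2 was the lowest of the 8 libraries in 71 of the 82 nuclear genes tested (86.6%), against 18.0% of all genes tested and 37.2% of genes whose implied transcript length was 200 to 600 nucleotides. The implied length is a gene's summed deposited counts over its summed TPM (abundance scaled by transcript length). It was scaled so that mt-Co1 had its annotated length of 1545 nucleotides, and other genes can differ from their annotated lengths. The nuclear members were short, with a median implied length of 393 nucleotides against 2088 over all genes. Knockout 3 was the highest of 8 in 53 of the 82 genes, so libraries of one group stood at both ends. The share of all genes for this count was not computed. Among 636 genes with an implied length below 300 nucleotides, the median deviation of knockout 3 from the 8-library mean was 0.15 (log2).

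As a median over the 82 nuclear genes, the deviation from the 8-library mean was -0.08, -0.39, 0.21 and 0.00 (log2) in knockout 1 to 4, against 0.06, 0.13, 0.14 and -0.05 in wildtype 1 to 4. The 75 cytosolic ribosomal protein genes, a class of short and abundant messages outside the mitochondrion, followed the same order of libraries at the extremes. Their deviations were -0.10, -0.44, 0.26 and 0.04 in knockout 1 to 4, against 0.05, 0.14, 0.12 and -0.08 in wildtype 1 to 4. The 14 genes of the tricarboxylic acid cycle are mitochondrial in function, with a median implied length of 2053 nucleotides, near the 2088 of all genes. They deviated by -0.11 in knockout 2 and 0.10 in knockout 3. Over all 18548 genes no library's median deviated by more than 0.01.

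**Figure D2:**
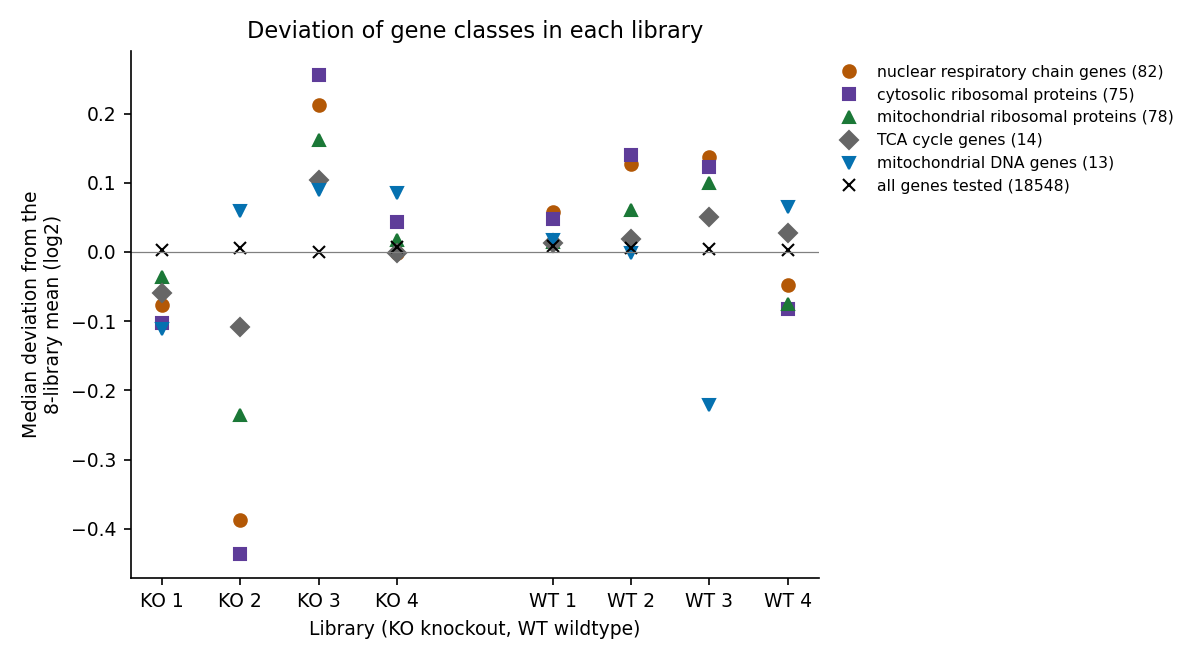
Median deviation from the 8-library mean (log2, y axis) of 6 gene classes in each library, knockout at left and wildtype at right, with the number of genes in brackets. Nuclear respiratory chain genes and ribosomal protein genes are both lowest in knockout 2 (-0.39 and -0.44) and highest in knockout 3 (0.21 and 0.26), whereas mitochondrial DNA genes are lowest in wildtype 3 (-0.22).

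The deviations varied with transcript length. Among 636 genes with an implied length below 300 nucleotides the median deviation of knockout 2 was -0.24, and among the 27 nuclear members in that range it was -0.44. Between 1000 and 2000 nucleotides the values were -0.07 over 3130 genes and -0.22 over 12 members. In every one of the 4 length ranges below 2000 nucleotides, knockout 2 was lower and knockout 3 higher for the members than for all genes of that range. With a correction for transcript length, the nuclear median relative to all genes was -0.09 and 72 of 82 genes were negative. Whether RNA quality took part in this difference was not tested.

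**Figure D3:**
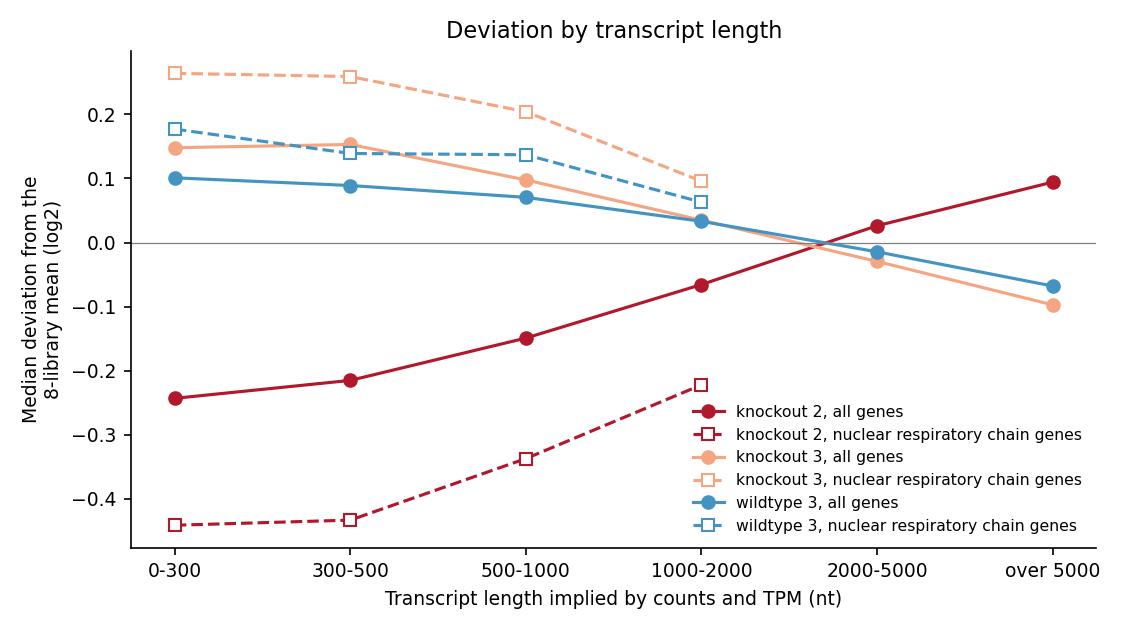
Median deviation from the 8-library mean (log2, y axis) of knockout 2, knockout 3 and wildtype 3 in ranges of implied transcript length (x axis, nucleotides), for all genes (filled circles) and for nuclear respiratory chain genes (open squares, ranges with at least 12 members). Short genes lie low in knockout 2 and high in knockout 3 and wildtype 3, and the members lie farther from 0 than all genes of the same length.

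Complex I, the entry point for NADH, had 33 of its 35 nuclear genes negative, with a median log2 fold change of -0.12 and a range of -0.22 to 0.04. Its summed level was 4191, 3446, 5238 and 4474 CPM in knockout 1 to 4, against 4708, 4918, 4910 and 4331 CPM in wildtype 1 to 4, and the groups overlapped. Ndufs1 (ENSMUSG00000025968, chr1:63143596-63176833), the iron-sulfur subunit that carries electrons along the peripheral arm, was 1 of 2 nuclear genes whose groups did not overlap. It measured 199.4, 208.0, 210.0 and 209.5 CPM in knockout 1 to 4, against 235.1, 250.05, 223.6 and 222.6 CPM in wildtype 1 to 4. All 4 knockout libraries thus lay below all 4 wildtype libraries, knockout 2 among them rather than apart. The log2 fold change was -0.17 ± 0.06 (SE), with an unadjusted p of 0.0182 and an adjusted p of 0.666 in edgeR's quasi-likelihood test, and -0.18 without knockout 2.

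Groups that did not overlap were found in 2 nuclear genes in the lower direction and 0 in the higher, against 2.06% and 1.97% of all genes tested. Without knockout 2 the counts were again 2 and 0, against 3.30% and 3.34%. These shares are near the background. Ndufa10, an accessory subunit and the nuclear complex I gene with the highest mean TPM, averaged 189 ± 25.9 CPM in knockout and 193 ± 7.62 CPM in wildtype kidneys (SD, n = 4 each). Its log2 fold change was -0.03 with all libraries and 0.04 without knockout 2.

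Complex II, succinate dehydrogenase, is the only complex made of nuclear products alone and also works in the tricarboxylic acid cycle. All 4 of its genes were negative, with a median of -0.13, and 3 of 4 without knockout 2, with a median of -0.10. Its summed level was 1129, 1113, 1303 and 1124 CPM in knockout 1 to 4, against 1257, 1267, 1287 and 1250 CPM in wildtype 1 to 4. Knockout 3 lay above every wildtype library and the other 3 knockout libraries below all of them. Sdhc, a membrane anchor (ENSMUSG00000058076, chr1:171127165-171150603), was the second gene whose groups did not overlap. It measured 217.7, 207.1, 233.0 and 236.5 CPM in knockout 1 to 4, against 242.5, 251.7, 257.5 and 253.8 CPM in wildtype 1 to 4, and the log2 fold change was -0.17 ± 0.06 (SE, unadjusted p = 0.0226, adjusted p = 0.700, edgeR's quasi-likelihood test).

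The other subunits of complex II overlapped between the groups. Sdha, the flavoprotein that oxidises succinate, measured 472.0, 536.8, 559.5 and 449.0 CPM in knockout 1 to 4, against 541.2, 531.0, 543.0 and 549.9 CPM in wildtype 1 to 4. The knockout libraries spread on both sides of a tight wildtype group, and Sdha was among the 11 tested nuclear genes in which knockout 2 was not the lowest. Sdhb, the iron-sulfur subunit, averaged 199 ± 34.3 CPM in knockout and 223 ± 12.3 CPM in wildtype kidneys (SD, n = 4 each), with a log2 fold change of -0.16 that came to -0.07 without knockout 2.

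Complex III, which passes electrons from ubiquinol to cytochrome c, had all 9 nuclear genes negative, with a median of -0.10. Without knockout 2 the median was -0.0022, and 5 of 9 were negative. Its summed level was 2045, 1679, 2313 and 2117 CPM in knockout 1 to 4, against 2101, 2267, 2234 and 2077 CPM in wildtype 1 to 4, with overlap. Cyc1, cytochrome c1, measured 270.1, 221.0, 260.2 and 250.2 CPM in knockout 1 to 4, against 279.3, 286.9, 286.1 and 265.0 CPM in wildtype 1 to 4. Only knockout 1 reached into the wildtype range, and the log2 fold change was -0.16 ± 0.07 (SE, unadjusted p = 0.0541, adjusted p = 0.814, edgeR's quasi-likelihood test). The small subunits Uqcrq and Uqcrh had log2 fold changes of -0.15 and -0.10, and of -0.03 and 0.03 without knockout 2.

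Complex IV, cytochrome c oxidase, had 13 of its 17 tested nuclear genes negative, with a median of -0.12, or -0.02 without knockout 2. Its summed level was 3301 ± 552 CPM in knockout and 3596 ± 270 CPM in wildtype kidneys (SD, n = 4 each). Cox5b, a zinc-binding subunit, measured 215.0, 163.4, 237.0 and 202.1 CPM in knockout 1 to 4, against 208.8, 249.9, 261.8 and 230.1 CPM in wildtype 1 to 4. The groups overlapped, and the log2 fold change was -0.22 ± 0.11 (SE, adjusted p = 0.842, edgeR's quasi-likelihood test), the lowest of the complex. Cox6c and Cox6b1, small structural subunits, had log2 fold changes of -0.16 each, and of -0.06 and -0.04 without knockout 2.

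Complex V, the ATP synthase, had 14 of 15 genes negative, with a median of -0.14, or -0.04 without knockout 2 with 10 negative. Its summed level was 7079 ± 1021 CPM in knockout and 7724 ± 296 CPM in wildtype kidneys (SD, n = 4 each), the largest sum of the nuclear complexes. Atp5g1, another gene for the c subunit of the ring, measured 150.5, 123.5, 157.2 and 132.6 CPM in knockout 1 to 4, against 169.0, 170.8, 178.5 and 144.2 CPM in wildtype 1 to 4. The groups overlapped through wildtype 4, and the log2 fold change of -0.23 ± 0.10 (SE, unadjusted p = 0.0347, adjusted p = 0.749, edgeR's quasi-likelihood test) was the lowest of all nuclear members. Atp5j, whose promoter is printed above, measured 196.5, 148.7, 196.3 and 197.3 CPM in knockout 1 to 4, against 206.9, 187.2, 234.4 and 211.5 CPM in wildtype 1 to 4. Knockout 2 alone lay far below the rest.

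Atp5b, the catalytic beta subunit, had the highest level per kb of annotated transcript of all nuclear members. It reached 2465 ± 333 CPM per kb in knockout and 2753 ± 152 CPM per kb in wildtype kidneys (SD, n = 4 each). This rank depends on the length used, here the median over all annotated transcripts of a gene, short ones included (768 nucleotides for Atp5b). By mean TPM Cox6b1 was above it, at 2259 against 1949 in knockout and 2727 against 2366 in wildtype kidneys. The log2 fold change of Atp5b was -0.16 ± 0.10 (SE, adjusted p = 0.875, edgeR's quasi-likelihood test), and -0.09 without knockout 2. The c subunit is encoded by 3 genes, of which Atp5g2 was by far the lowest and varied widely, at 12.8, 8.56, 5.17 and 8.11 CPM in knockout 1 to 4, against 6.39, 8.95, 3.09 and 15.3 CPM in wildtype 1 to 4. Atp5g2 was chosen after its values were seen, and its groups overlapped fully.

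**Figure D4:**
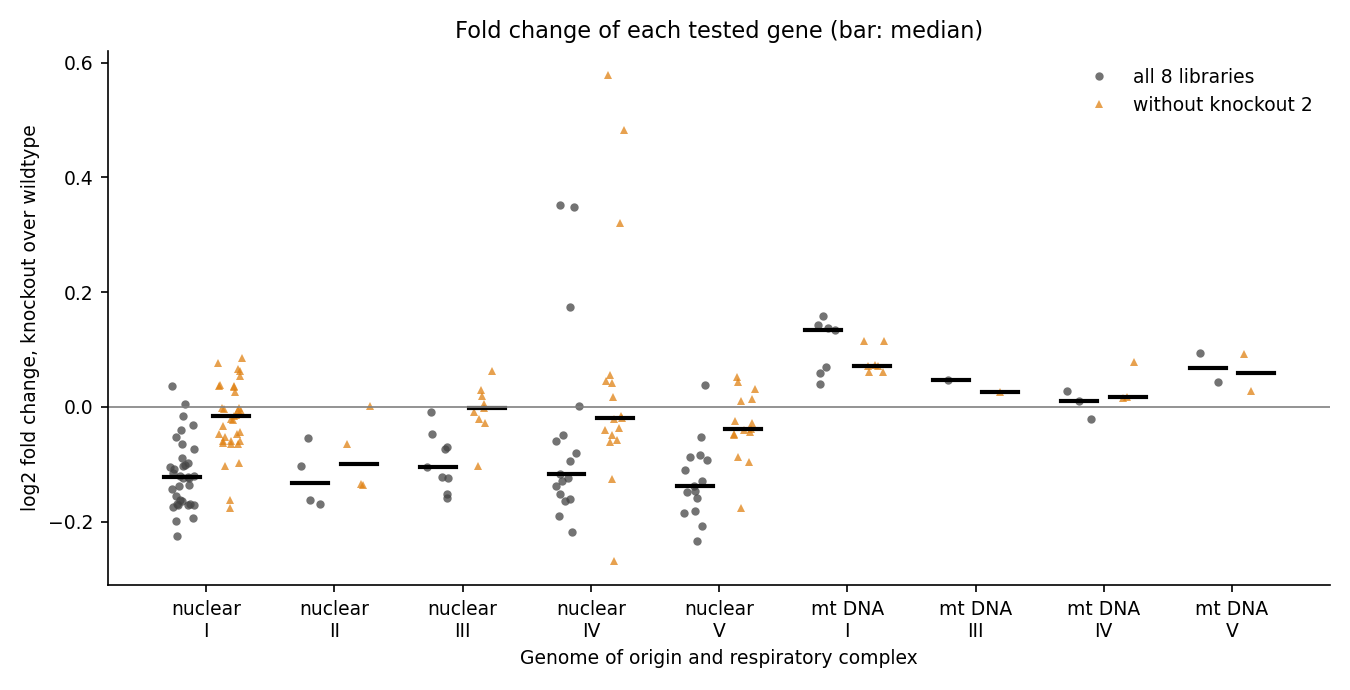
Log2 fold change of each tested gene, knockout over wildtype (y axis), by genome of origin and complex (x axis), with all 8 libraries (grey circles) and without knockout 2 (orange triangles), and a bar at each median. Each nuclear complex has its median nearer to 0 without knockout 2, where that of complex III is nearest (-0.10 with all libraries, -0.0022 without), and all mitochondrial DNA genes lie above 0 without it.

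Several subunits of complex IV come in a general form and a form restricted to certain tissues, such as heart, skeletal muscle, brown fat, lung or testis. Cox4i2, the lung form of subunit 4, made up 0.312% ± 0.0384 of the TPM of Cox4i1 plus Cox4i2 in knockout and 0.255% ± 0.0225 in wildtype kidneys (SD, n = 4 each). It had 54 to 93 counts per library, and the log2 fold change was 0.17 ± 0.24 (SE, adjusted p = 0.950, edgeR's quasi-likelihood test). The general Cox4i1 averaged 705 ± 148 CPM in knockout and 776 ± 66.9 CPM in wildtype kidneys (SD, n = 4 each). Cox6b2, known from testis, made up 2.42% ± 0.484 of its pair in knockout and 2.22% ± 0.105 in wildtype kidneys. Ndufa4l2, a paralog of Ndufa4 induced by hypoxia, made up 1.63% ± 0.0779 in knockout and 1.72% ± 0.110 in wildtype kidneys, again by TPM. These shares depend on the length used. By CPM per kb of annotated transcript, a measure chosen after seeing the data, Cox4i2 came to 0.511% in knockout and 0.417% in wildtype kidneys. On the same scale Cox6b2 came to 5.29% in knockout and 4.86% in wildtype kidneys, and Ndufa4l2 to 3.22% in knockout and 3.40% in wildtype kidneys. Cox6a2, the muscle form of Cox6a1, had 1 to 4 counts in the knockout libraries and 0 to 11 in the wildtype libraries. Cox7b2 had 6 counts in knockout 1 and 0 in the other 7 libraries, and Cox8c was at 0 in all 8.

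Cox7a1 and Cox8b, the heart, muscle and brown fat forms of subunits 7a and 8, varied widely within both groups. Cox7a1 measured 9.62, 11.1, 27.5 and 14.8 CPM in knockout 1 to 4, against 11.1, 11.0, 15.5 and 11.8 CPM in wildtype 1 to 4. Cox8b measured 3.84, 5.39, 22.6 and 12.2 CPM in knockout 1 to 4, against 8.04, 4.34, 13.9 and 8.03 CPM in wildtype 1 to 4. Knockout 3 was the highest library for both, wildtype 3 and knockout 4 followed, and the groups overlapped. Their log2 fold changes were 0.35 ± 0.31 and 0.35 ± 0.58 (SE, adjusted p = 0.932 and 0.962, edgeR's quasi-likelihood test), and without knockout 3 both were negative, at -0.06 and -0.26.

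Markers of brown fat, a tissue that lies around the young kidney, varied in nearly the same order. Ucp1, Cidea, Plin1, Adipoq and Elovl3 summed to 40.9, 92.3, 201.6 and 151.7 CPM in knockout 1 to 4, against 74.2, 56.7, 170.8 and 141.6 CPM in wildtype 1 to 4. Of these, Ucp1, the uncoupling protein that defines brown fat, ranged from 15.1 to 127.3 CPM in knockout and from 30.9 to 113.8 CPM in wildtype libraries, and Elovl3 had at most 0.149 CPM. On the log2 scale, over the 8 libraries, the summed markers correlated with Cox8b at Pearson's r = 0.907 (exact permutation p = 0.00243, Benjamini-Hochberg adjusted over 5 relations 0.0122) and Spearman's rho = 0.929 (exact permutation p = 0.00223, adjusted 0.00558). For Cox7a1 r was 0.792 (exact permutation p = 0.0106, adjusted 0.0265) and rho was 1 (exact permutation p = 4.96e-05, the smallest that 8 libraries allow, adjusted 0.000248).

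The marker sums left a gap between 92.3 and 141.6 CPM, with 4 libraries on either side, fewer than the 6 required here for a correlation. Without knockout 1 and wildtype 2, the libraries farthest from the median of the markers on the log2 scale, r was 0.820 for Cox8b and 0.795 for Cox7a1. The relation was computed for 3 further genes: r was 0.251 for Cox4i2, 0.266 for Cox7a2 and 0.217 for Cox8a, with exact permutation p of 0.578, 0.579 and 0.671. Without the same libraries these came to 0.653, 0.596 and 0.497. On the CPM scale, an alternative chosen after seeing the data, r was 0.900 for Cox8b and 0.809 for Cox7a1, against 0.435 for Cox4i2, 0.398 for Cox7a2 and 0.307 for Cox8a. Without knockout 1 and knockout 3, the farthest on that scale, r was 0.872 for Cox8b and 0.869 for Cox7a1, against -0.179 for Cox4i2, 0.155 for Cox7a2 and 0.128 for Cox8a. The general forms Cox7a2 and Cox8a measured 174 ± 32.5 and 258 ± 30.5 CPM in knockout and 191 ± 8.39 and 280 ± 9.01 CPM in wildtype kidneys (SD, n = 4 each). Summed markers of skeletal muscle, another tissue with these forms, lay between 3.33 and 4.62 CPM in knockout and between 2.41 and 3.89 CPM in wildtype libraries. These levels are low, and only 3 of the 6 markers could be tested. In TPM the sum varied more, from 7.22 to 20.4 in knockout and from 11.4 to 24.7 in wildtype libraries. The part of adhering brown fat in the levels of Cox7a1 and Cox8b was not tested beyond these values.

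**Figure D5:**
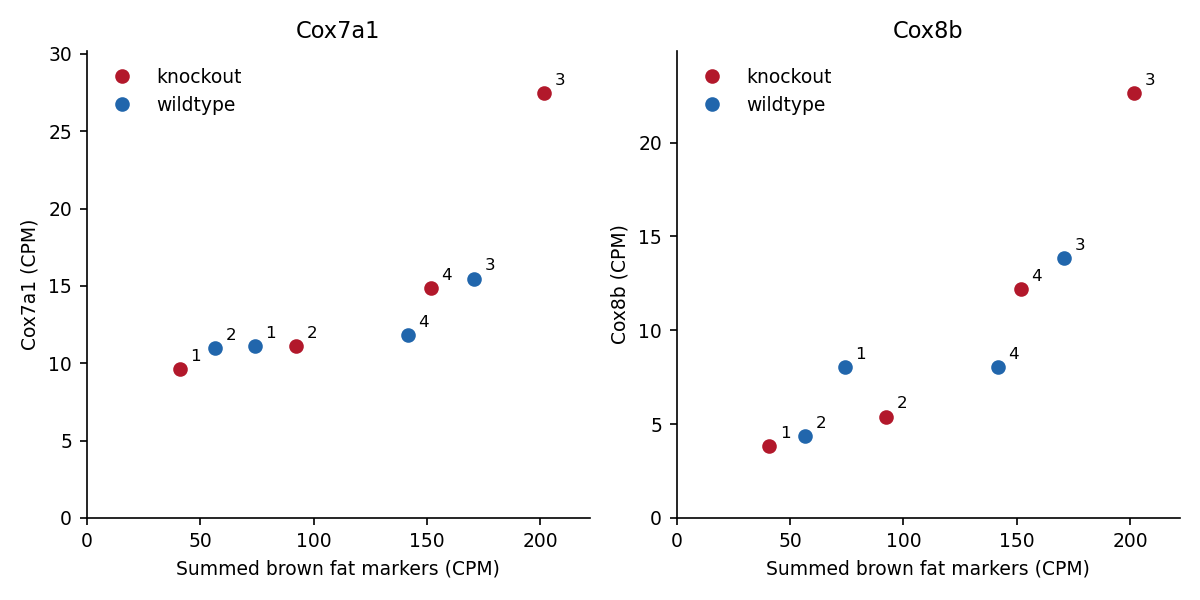
Level of Cox7a1 (left) and Cox8b (right) in CPM (y axis) against the summed level of 5 brown fat markers in CPM (x axis), 1 point per library with its replicate number, knockout in red and wildtype in blue. Knockout 3, with 201.6 CPM of markers, has the highest level of both genes, and knockout 1, with 40.9 CPM, the lowest.

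Cox7b, a small subunit encoded in the X chromosome (chrX:106015700-106022450), ordered the libraries differently from most nuclear members. It measured 187.7, 241.4, 186.7 and 218.9 CPM in knockout 1 to 4, against 197.3, 230.5, 327.5 and 196.8 CPM in wildtype 1 to 4. Within each group the highest library was the one with a high Xist level, knockout 2 and wildtype 3. Of the other X-linked members, both chosen after their values were seen, Ndufa1 did not share this order and Ndufb11 shared it only in wildtype 3. As a median over the nuclear members, wildtype 3 was also the highest of its group (log2 deviation 0.14). In knockout 2 Ndufa1 and Ndufb11 measured 51.3 and 109.7 CPM, the lowest of all 8 libraries for both. In wildtype 3 Ndufb11 measured 179.6 CPM, the highest of the 8, and Ndufa1 66.6 CPM, the second of its group.

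Among the 13 genes of mitochondrial DNA, transcribed as long precursors from both strands and cut at the tRNAs, the level per length ran from 474 ± 97.3 CPM per kb for mt-Nd3 to 11915 ± 1858 CPM per kb for mt-Co2 in knockout kidneys. In wildtype kidneys the ends were the same, at 452 ± 150 CPM per kb for mt-Nd3 and 11824 ± 1122 CPM per kb for mt-Co2 (SD, n = 4 each). After mt-Co2 came mt-Atp6, mt-Co3, mt-Co1 and mt-Cytb in both groups, and the SDs of mt-Atp6 and mt-Co3 overlapped. TPM gave another order, with mt-Atp8 first at 17754 ± 2385 in knockout kidneys, because the deposited values imply a length of only 12.3 nucleotides for this gene of 204. Levels per kb of annotated transcript are therefore used here.

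The 7 mitochondrial genes of complex I all had positive log2 fold changes, from 0.04 to 0.16, with a median of 0.13, or 0.07 without knockout 2. mt-Nd4l, a membrane subunit, measured 309.2, 384.1, 281.6 and 334.8 CPM in knockout 1 to 4, against 290.0, 277.9, 264.4 and 341.5 CPM in wildtype 1 to 4. The groups overlapped, and its log2 fold change of 0.16 ± 0.11 (SE, adjusted p = 0.908, edgeR's quasi-likelihood test) was the highest of the 13. mt-Nd5, a proton-pumping subunit, measured 2640, 3100, 2539 and 2600 CPM in knockout 1 to 4, against 2559, 2568, 2089 and 2633 CPM in wildtype 1 to 4. Wildtype 3 alone lay low, and the log2 fold change was 0.14 ± 0.09 (SE, adjusted p = 0.903, edgeR's quasi-likelihood test).

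mt-Nd2 and mt-Nd4, the other large membrane subunits with such values, had log2 fold changes of 0.13 and 0.14. mt-Nd1, mt-Nd3 and mt-Nd6, the last the only protein of the opposite strand, had 0.04, 0.07 and 0.06. No label states whether the deposited counting used strand, so reads of mt-Nd6 and of the transcripts antisense to it may not have been told apart.

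mt-Cytb, the cytochrome b of complex III and its only mitochondrial subunit, averaged 6197 ± 683 CPM in knockout and 5997 ± 491 CPM in wildtype kidneys (SD, n = 4 each), with a log2 fold change of 0.05. In complex IV, mt-Co1, which holds the site of oxygen reduction, measured 8978, 10030, 9219 and 11083 CPM in knockout 1 to 4, against 9813, 9239, 8614 and 10909 CPM in wildtype 1 to 4, and the groups overlapped. The log2 fold changes of mt-Co1, mt-Co2 and mt-Co3 were 0.03, 0.01 and -0.02, and that of mt-Co3 was 0.02 without knockout 2. In complex V, mt-Atp6, which forms the proton channel with the ring, measured 6015, 6589, 6732 and 6960 CPM in knockout 1 to 4, against 6658, 6698, 4685 and 6594 CPM in wildtype 1 to 4. Wildtype 3 again lay low, and the log2 fold changes of mt-Atp6 and mt-Atp8 were 0.09 and 0.04.

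Wildtype 3 was the lowest of all 8 libraries in 10 of the 13 mitochondrial genes, a count for which the share of all genes was not computed. Without wildtype 3, the median log2 fold change of the 13 relative to all genes was -0.02, against 0.06 with it, and 5 of 13 were positive. Mitochondrial and nuclear genes therefore did not share a low library: in wildtype 3 the nuclear members stood at 0.14 and the mitochondrial ones at -0.22, and in knockout 2 at -0.39 and 0.06 (log2 deviation from the 8-library mean).

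Copies of at least 99% identity to a mitochondrial gene were annotated for 7 of the 13, all in one stretch of chromosome 1. Their share differed by gene. For mt-Nd3 the copy Gm28438 took 79.1% of the summed CPM of gene and copy in knockout and 79.0% in wildtype kidneys. For mt-Co1 the copy Gm29216, alike over 483 bases with 1 mismatch, took 29.6% in knockout and 30.8% in wildtype kidneys. The copies of mt-Co3 and mt-Nd4l had at most 1 count in any library.

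With the copies added, mt-Nd3 came to 789 ± 129 CPM in knockout and 750 ± 112 CPM in wildtype kidneys (SD, n = 4 each), which is 2268 CPM per kb in knockout and 2154 CPM per kb in wildtype kidneys and no longer the lowest level of the 13. mt-Co1 came to 9037 CPM per kb in knockout and 9016 CPM per kb in wildtype kidneys, above the 8735 and 8866 CPM per kb of mt-Co3, so their order turned round. The log2 fold change of mt-Nd3 was 0.07 ± 0.14 with its copy and 0.07 ± 0.26 without it (SE). mt-Co2 had -0.01 with its copy and 0.01 for the gene alone, and 0 members passed the threshold in either case.

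Genes that build or feed the complexes did not pass the test either. The counts past the threshold were 0 of 15 assembly factors of complex I, 0 of 13 of complexes II, III and V, and 0 of 18 of complex IV, with median log2 fold changes of -0.08, -0.06 and -0.04. Acad9, an assembly factor of complex I, averaged 52.4 ± 2.62 CPM in knockout and 60.8 ± 5.09 CPM in wildtype kidneys (SD, n = 4 each, log2 fold change -0.21, adjusted p = 0.706, edgeR's quasi-likelihood test). It was the 1 of 15 lower without overlap between the groups, against 2.06% of all genes tested. Uqcc1, needed for cytochrome b of complex III, had a log2 fold change of -0.31, and Pet100, an assembly factor of complex IV, also -0.31. Of 17 genes of electron carriers and ubiquinone synthesis 9 were negative, with a median of -0.01 and 0 past the threshold, and Pdss2 of the ubiquinone side chain had 0.24.

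All 14 genes of the tricarboxylic acid cycle were negative but small, with a median of -0.05 and 0 past the threshold, and 9 of 14 were negative without knockout 2. Idh2, the mitochondrial NADP-dependent isocitrate dehydrogenase, averaged 391 ± 24.2 CPM in knockout and 430 ± 25.4 CPM in wildtype kidneys (SD, n = 4 each). Of 11 carriers of the inner and outer membrane 8 were negative and 0 passed the threshold, among them Vdac2, a channel of the outer membrane, and Slc25a3, the phosphate carrier that supplies the ATP synthase, with -0.14 and -0.13. Of 17 glycolytic genes 15 were negative, with a median of -0.09 and 0 past the threshold. Pkm, pyruvate kinase, averaged 464 ± 27.9 CPM in knockout and 545 ± 41.9 CPM in wildtype kidneys, and Pfkm, phosphofructokinase, 62.7 ± 3.84 and 73.1 ± 3.48 CPM (SD, n = 4 each). Both had groups that did not overlap and an adjusted p of 0.590 (edgeR's quasi-likelihood test). They were the 2 of 17 lower without overlap, against 2.06% of all genes tested, and were named for their small p.

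Regulators of mitochondrial biogenesis gave 0 of 12 past the threshold, with a median of -0.01. Ppargc1b, a coactivator of the estrogen-related receptors, averaged 9.81 ± 0.865 CPM in knockout and 12.4 ± 1.01 CPM in wildtype kidneys (SD, n = 4 each), with groups that did not overlap and a log2 fold change of -0.34 ± 0.12 (SE, adjusted p = 0.652, edgeR's quasi-likelihood test). Perm1, another regulator of that receptor pathway, had -0.51 ± 0.24 (SE), also without overlap. These were the 2 of 12 lower without overlap, against 2.06% of all genes tested. Among 13 genes that replicate and transcribe mitochondrial DNA, 0 passed the threshold. Tfb2m, the mitochondrial transcription factor that opens the promoter, averaged 24.8 ± 5.03 CPM in knockout and 32.9 ± 1.43 CPM in wildtype kidneys (log2 fold change -0.40, adjusted p = 0.617, edgeR's quasi-likelihood test), and its groups did not overlap. It was the 1 of 13 lower without overlap. Of 78 mitochondrial ribosomal proteins 60 were negative, and 28 of 78 without knockout 2, with 0 past the threshold. Mrps10 of the small subunit came nearest, at 27.5 ± 1.16 CPM in knockout and 33.9 ± 1.61 CPM in wildtype kidneys (SD, n = 4 each, log2 fold change -0.30, adjusted p = 0.354, edgeR's quasi-likelihood test). It was the 1 of 78 lower without overlap. List genes were named for the smallest p, a choice that favours groups without overlap. Of 75 cytosolic ribosomal protein genes 68 were negative, and 29 of 75 without knockout 2, with 0 past the threshold.

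Among cell type markers, 2 genes of the distal convoluted tubule passed the threshold in edgeR. DESeq2 called 4 of the distal convoluted tubule, 1 of the thick ascending limb and 1 of the proximal tubule. All 6 markers of the distal convoluted tubule were negative. The 2 that passed in edgeR were Slc12a3, the thiazide-sensitive cotransporter (log2 fold change -0.91, adjusted p = 0.00634), and Pvalb, a calcium buffer (log2 fold change -2.01, adjusted p = 0.000364, both by edgeR's quasi-likelihood test). The 6 summed to 308 to 403 CPM in knockout and 633 to 677 CPM in wildtype libraries.

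The 6 markers of the thick ascending limb summed to 2459 to 2885 CPM in knockout and 2345 to 2511 CPM in wildtype libraries, with members of opposite sign and 0 of 6 past the threshold in edgeR. Umod, the uromodulin gene, measured 1341, 1113, 1178 and 1194 CPM in knockout 1 to 4, against 768.3, 822.2, 805.8 and 929.3 CPM in wildtype 1 to 4, with no overlap. Umod was the 1 of 6 higher without overlap, against 1.97% of all genes tested. Its log2 fold change was 0.54, with an adjusted p of 0.0599 in edgeR's quasi-likelihood test, 0.0409 in the same test with the length correction and 1.33e-06 in DESeq2. Slc12a1, the sodium-potassium-chloride cotransporter, had -0.26 (adjusted p = 0.553, edgeR's quasi-likelihood test).

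The 8 proximal tubule markers summed to 3935 to 4160 CPM in knockout and 3865 to 4079 CPM in wildtype libraries. 0 of 8 passed in edgeR and 1 in DESeq2, Slc13a3, a dicarboxylate transporter (log2 fold change 0.36, adjusted p = 0.344 in edgeR's quasi-likelihood test and 0.0364 in DESeq2). Their signs were mixed, with 6 positive and 2 negative log2 fold changes. Slc5a2 had -0.36 (adjusted p = 0.4495 in edgeR's quasi-likelihood test and 0.116 in DESeq2). Its groups did not overlap, and neither did those of Slc13a3. In this list 1 gene was lower and 2 were higher without overlap, against 2.06% and 1.97% of all genes tested. All 5 markers of intercalated cells, the acid-base cells of the collecting duct, had positive log2 fold changes, and 0 passed in either test. They summed to 262.8 to 291.3 CPM in knockout and 226.8 to 258.7 CPM in wildtype libraries, without overlap. Of these 5 genes, 1 was itself higher without overlap, against 1.97% of all genes tested. Marker sums of endothelium and of macrophages also did not overlap, but were lower in knockout libraries. Endothelium summed to 748.98 to 803.72 CPM in knockout and 808.27 to 886.04 CPM in wildtype libraries. Macrophages summed to 88.47 to 93.554 CPM in knockout and 93.885 to 100.02 CPM in wildtype libraries. Both sets were added with their values in view. Umod, Slc12a1, Slc13a3 and Slc5a2 were named here with their values in view. The part of these cell types in the levels of the nuclear and mitochondrial respiratory chain genes was not tested.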

How the data were processed

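RNA was measured in 4 knockout and 4 wildtype libraries of whole kidneys. The submitters' processing notes name Salmon, mm10 and DESeq2 1.14.1, with no annotation release. As deposited by the authors, the files held expected counts per gene, already whole numbers, and TPM per gene with symbols. The count table holds no names, so rows were matched by position to the 47729 TPM identifiers. Counts over TPM varied between libraries by a median SD of 0.000745 (log2) in 13251 well-counted genes, against 0.281 with rows shifted by 1. Rows with no symbol held 0.0821% to 0.178% of the counts and were kept.

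The members and lists were chosen with earlier results of these data known. All genes were filtered (filterByExpr, 18548 kept), scaled by TMM and tested two-sided with edgeR 4.0.16 (quasi-likelihood, robust, R 4.3.3), with Benjamini-Hochberg adjustment over all genes and a threshold of 0.05. CPM are TMM-scaled. SEs were derived from each gene's F statistic, as effect size over root F. On simulated counts of 18182 genes, recovery by the test was 32.8% at 1.5-fold (67 genes), 74.6% at 2-fold (67 genes) and 87.9% at 4-fold (66 genes). Of 136 calls, 6 fell on unchanged genes. Genes were drawn independently, so the simulation held no deviation shared by many genes of a library. No fold below 1.5 was simulated, so it does not give the recovery of smaller changes. Alternatives were other scalings and filters, DESeq2 1.42.0, limma 3.58.1 on log2(TPM + 1) and log2(TPM + 0.1), a replicate block, each library left out and copies of mitochondrial genes added. A loess correction for transcript length, DESeq2 without knockout 2 and the removal of knockout 1 with knockout 2 were chosen after seeing the data. Named genes were, per complex, the 2 nuclear genes with the smallest p and the highest mean TPM, then all mitochondrial genes, the isoform pairs, and from each list those past the threshold or up to 2 with the smallest p. One gene that the rule names is not reported here. Coordinates, transcript lengths and transcripts came from GENCODE M21, copies from BLAST+ 2.17.0 and promoters from RefSeq.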

Additional observations from a re-analysis of the deposited data

Results flagged for a closer look

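In sets of 4 libraries, 10 of 103 had a library whose gap to the nearest other exceeded Dixon's 95% critical value. Chance gives about 1 in 20, or 5.2 sets.

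Atp5j measured 148.7 CPM in knockout 2, against 196.3 to 197.3 CPM in the other knockout libraries. In the summed level of nuclear complex II genes knockout 3 stood apart, at 1303 CPM against 1112 to 1129 CPM in the other knockout libraries.

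Among mitochondrial DNA genes, mt-Nd2 was low in knockout 1 (2046 CPM, against 2489 to 2566) and mt-Nd3 high in knockout 3 (215.7 CPM, against 146.3 to 149.1). Wildtype 3 was low for mt-Nd5 (2089 CPM, against 2559 to 2633), for mt-Atp6 (4685 CPM, against 6594 to 6698) and for the sum of all 13 genes (44840 CPM, against 53730 to 55470).

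Cox4i2 was high in wildtype 2 at 4.544 CPM (against 3.635 to 3.714), and Cox7b2 had 0.3772 CPM in knockout 1 and none in the other knockout libraries. Kctd1 was low in wildtype 2 at 28.93 CPM, against 32.08 to 32.62 CPM in the other wildtype libraries.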

How the results depend on the processing

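In all 22 alternatives, 0 oxidative phosphorylation genes passed the threshold. The count over all genes, 15 in the report, was 27 with no filter, 143 with DESeq2, 153 with DESeq2 without knockout 2, 28 with the length correction and 9 without knockout 1 and 2. With limma it was 5 on log2(TPM + 1), 5 on log2(TPM + 0.1) and 6 on log2(TPM + 1) without a filter. With 1 library left out it was 10 to 52 (29 without knockout 3, 52 without wildtype 4). Replicate numbers do not pair the libraries (correlations of same-numbered libraries -0.081 to 0.036), and with the replicate block 10 genes and 0 members were called.

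Relative to all genes, the nuclear median with 1 library left out was -0.219 (without knockout 3) to -0.025 (without knockout 2), and 0.033 without knockout 1 and 2. The number of nuclear genes lower at an unadjusted p below 0.05 was 1 (without wildtype 2, where 2.56% of all genes were) to 27 (without knockout 3, where 4.16% were). With TPM the median of all genes shifted by -0.106 for log2(TPM + 1) and -0.141 for log2(TPM + 0.1). There the mitochondrial median was -0.0861 and that of complex II -0.2836 (-0.2842 for log2(TPM + 0.1)), and relative to all genes the mitochondrial median was 0.020 and 0.055, or -0.045 without a filter.

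Several log2 fold changes near 0 changed sign, and the cause was not tested. In the 3 fits on TPM these were mt-Nd1 -0.0991, mt-Nd2 -0.009, mt-Nd3 -0.0266, mt-Nd4 -0.003, mt-Nd6 -0.0861, mt-Cytb -0.1009 (-0.101 for log2(TPM + 0.1)), mt-Co1 -0.1171 (-0.1172), mt-Co2 -0.1418, mt-Atp6 -0.0373 and mt-Atp8 -0.0985, and for log2(TPM + 0.1) also Cox4i2 -0.0148 and Cox8b -0.0041. mt-Co2 was -0.0035 with total count scaling and -0.0123 with copies added. Without knockout 1 and 2, Ndufa10 was 0.096, Uqcrq 0.0144, Uqcrh 0.0974, Cox6c 0.025, Cox6b1 0.0258, mt-Co3 0.0868, Cox4i1 0.0539, Cox6a1 0.0807, Cox7a2 0.0373 and Ndufa4 0.1241. With DESeq2 without knockout 2, Ndufa10 was 0.037, Uqcrh 0.0309, mt-Co3 0.018, Cox6a1 0.0194 and Ndufa4 0.0568. With the length correction, Ndufa10 was 0.019 and mt-Co3 0.0037.

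With 1 library left out, the lowest and highest log2 fold changes were -0.1223 and 0.0357 for Ndufa10, -0.2096 and 0.0295 for Uqcrh, -0.223 and 0.018 for Cox6a1, -0.1746 and 0.0554 for Ndufa4, -0.0583 and 0.3204 for Cox4i2, -0.0565 and 0.5215 for Cox7a1, -0.261 and 0.686 for Cox8b, and -0.2712 and 0.0037 for Cox7b. For mitochondrial genes they were -0.0438 and 0.099 for mt-Nd1, -0.1178 and 0.2227 for mt-Nd3, -0.006 and 0.1171 for mt-Cytb, -0.0355 and 0.0913 for mt-Co1, -0.0871 and 0.0783 for mt-Co2, -0.0713 and 0.0166 for mt-Co3, -0.0169 and 0.1364 for mt-Atp6, and -0.0171 and 0.0829 for mt-Atp8.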
